A study of Mus musculus with 6 samples.

Results

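7SL RNA rows were examined in extracellular vesicles (EVs) released by cortical astrocytes and by neural stem cells (NSCs) of CD1 mice. The rows were chosen as those that the count table assigns to the metazoan signal recognition particle RNA family of the Rfam database (RF00017), and 13 of the 61949 rows of the table belonged to it. No 2 of the 13 held equal counts in all 6 libraries, so each was kept. Astrocyte EVs (3 libraries) came from the medium of cultures started from dorsal cortices of neonatal CD1 pups. Shaking had depleted microglia and oligodendrocytes from those cultures, and the medium from which EVs were taken held fetal bovine serum. NSC EVs (3 libraries) came from primary neonatal NSCs of the subventricular zone of CD1 mice, whose medium the study does not describe. EVs were pelleted by serial centrifugation, and their RNA was extracted with Trizol followed by SeraMir columns. Sources differ on the libraries, with an Illumina kit and HiSeq sequencing in the study's methods but CleanTag libraries and NextSeq sequencing in the series record. Nothing in the labels ties the replicates to separate cultures or animals, and p-values therefore cover only the spread between these libraries, which may be technical.

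7SL RNA is the RNA scaffold of the signal recognition particle (SRP), the cytoplasmic ribonucleoprotein that binds signal peptides on translating ribosomes and brings them to the endoplasmic reticulum. RNA polymerase III transcribes it, its 5′ and 3′ ends fold together into the Alu domain, and its middle part forms the S domain that holds the signal peptide binding subunit. The mouse genome carries a few 7SL genes and many partial or mutated copies, including B1 repeats, and 7SL fragments are a common constituent of EV RNA.

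Short reads can be told apart between 7SL copies only where the copies differ in sequence, so each copy was compared with Rn7s1 by the exact 20-base matches that they share. The comparison used the GENCODE vM21 transcripts on mm10. Rn7s1 lies at chr12:69159295-69159594 and Rn7s6 at chr6:69516339-69516629, both on the plus strand. Gm26461 lies at chr9:88553236-88553525 on the plus strand, and Gm24105 at chr5:149247952-149248244 and Gm22876 at chr14:31836884-31837181 lie on the minus strand. Matches to Rn7s1 ran from position 20 to 214 in Rn7s6 and from position 1 to 182 in Gm26461, counted from the 5′ end of Rn7s1. In Gm24105 they were shorter and ran from position 9 to 281, and Gm22876 had 0.

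Where 3 values are listed for an EV type, they are those of its replicates 1, 2 and 3. The counts of the table summed to between 72359982 and 111851274 per astrocyte EV library and between 44620985 and 50898531 per NSC EV library. Several rows can count the same read, so these totals and all shares below are of table counts and not of reads. TMM factors, which adjust each library size for its composition, were 0.488, 0.869 and 1.27 in the astrocyte EV libraries and ran from 1.09 to 1.42 in NSC EVs. tRNA rows took 51.3%, 46.1% and 37.0% of non-hairpin counts in the astrocyte EV libraries, against 21.6% to 34.1% in NSC EVs. Summed astrocyte marker mRNA rows stood at 16.8 to 36.8 CPM (counts per 1e+06 counts, here without TMM) in astrocyte EVs, against 35.7 to 60.2 CPM in NSC EVs. Neural stem and progenitor rows stood at 10.9 to 31.0 CPM in astrocyte EVs, against 23.9 to 34.4 CPM in NSC EVs, and microglial rows at 6.69 to 19.9 CPM in astrocyte EVs, against 16.8 to 27.7 CPM in NSC EVs. Oligodendrocyte lineage rows stood at 15.0 to 22.8 CPM in astrocyte EVs, against 17.7 to 40.3 CPM in NSC EVs, fibroblast rows at 10.4 to 14.3 CPM in astrocyte EVs, against 8.99 to 12.1 CPM in NSC EVs, and red blood cell rows at 0.111 to 1.59 CPM in astrocyte EVs, against 0.593 to 1.15 CPM in NSC EVs. By edgeR 2 of the 9 astrocyte rows (Gfap and Aldoc) were called higher in astrocyte EVs, beside 5.54% of all tested rows called higher and 4.24% called lower. Of the other marker lists, 0 of 7 tested neural stem and progenitor rows, 0 of 6 microglial rows, 0 of 5 oligodendrocyte lineage rows and 0 of 1 red blood cell row were called, and 1 of 4 fibroblast rows (Col1a2) was called higher. Of the rows of these lists, 0 were at 0 in all 6 libraries. The part of cell composition in the 7SL values was not tested. Less RNA per EV and fewer EVs that carry it cannot be told apart in these libraries.

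Counts of the 7SL family lay on a few copies. Over the 6 libraries Rn7s1 held 34713 counts and Rn7s2 held 34707, followed by Rn7s6 with 18620, Gm26461 with 16221 and Gm24514 with 13024. Rn7s1 and Rn7s2, which lies on the minus strand at chr12:69361182-69361481, have the same 300 bases with 0 mismatches, and their counts differed by at most 6 in any library. These 2 genes therefore give 1 measurement, and their counts cannot be assigned to either gene. Gm23153 (chr1:190482845-190483157) held 6662 counts, Gm25687 (chr4:54468352-54468592) 3641 and Gm24105 3467. The remaining copies held fewer counts, with 1526 on Gm22567 of chromosome 18, 1144 on Gm24812 (chrX:87899205-87899488), 656 on Gm22701 (chr8:110498852-110499142) and 166 on Gm22649 (chr7:6839824-6840121). Gm22876 was nearly empty, with 1, 0 and 3 counts in the astrocyte EV libraries, against 2, 0 and 0 in the NSC EV libraries. A copy listed at 0 could hold up to 3 counts, or between 0.0270 and 0.0678 CPM without TMM.

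The order of the copies by counts was close to that by how much of Rn7s1 they hold without a mismatch, with Gm24105 as an exception. Rn7s1 has 281 words of 20 bases, of which Rn7s6 holds 156, Gm26461 108, Gm24105 94, Gm24514 89, Gm23153 64 and Gm25687 34. Gm22567 and Gm24812 hold 27 each, Gm22701 holds 21, Gm22649 holds 1 and Gm22876 holds 0. Across the 12 copies other than Rn7s1, Spearman's rho between shared words and summed counts was 0.956, whereas it was 0.49 for percent identity over the whole alignment and -0.09 for length. The copies share libraries and may share reads, so these coefficients only describe the order. Gm24105 was 91.4% identical to Rn7s1, more than any copy except Rn7s2, and holds 94 words, but its 3467 counts were below those of Gm24514, Gm23153 and Gm25687, which hold fewer words. Gm22876 was 81.3% identical, above Gm26461 at 79.0%, and held 6 counts against 16221. Of the last 100 bases of Rn7s1, Gm26461, Gm23153 and Gm22701 cover 0 bases in exact 20-base matches, Rn7s6 covers 14 and Gm24105 covers 58.

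**Figure D1:**
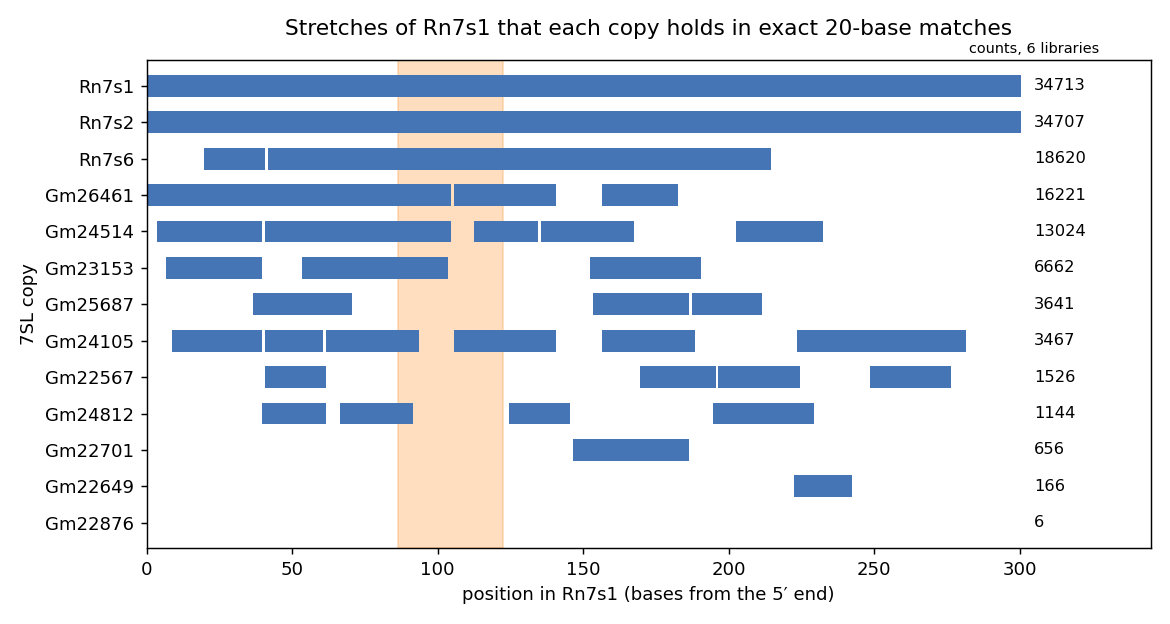
Stretches of Rn7s1 (x axis, position in bases from its 5′ end) that each 7SL copy holds in exact 20-base matches, with the counts of each copy summed over the 6 libraries at the right. The orange band is the window from position 87 to 122 that holds the 3 piRNA-annotated rows, which only Rn7s1, Rn7s2 and Rn7s6 cover whole.

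**Figure D2:**
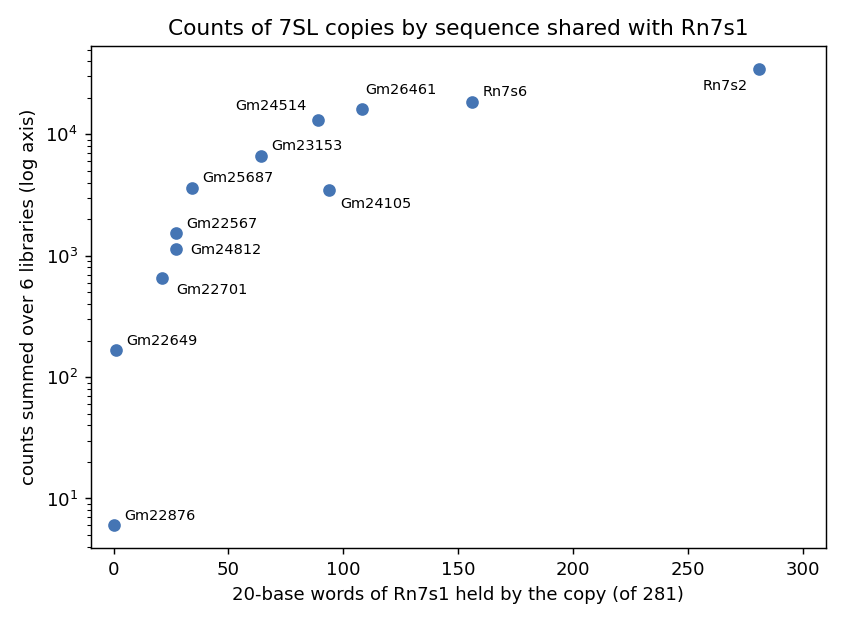
Summed counts of the 12 copies other than Rn7s1 over the 6 libraries (log axis) against the number of 20-base words of Rn7s1 that the copy holds, of 281. Counts run from 6 on Gm22876, which holds 0 words, to 34707 on Rn7s2, which holds all 281, and Gm24105 lies below copies with fewer words.

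To determine whether the copies differed between EV types, all non-hairpin rows were fitted together with edgeR's quasi-likelihood test, and a row was called at a Benjamini-Hochberg adjusted p under 0.05. Of the 13 rows, 12 passed the low-count filter and Gm22876 did not. Of the 12, 0 were called, 0 had an unadjusted p under 0.05, and 0 were called by the alternative tool DESeq2. In comparison, edgeR called 9.78% of all 41308 tested rows and DESeq2 called 19.1%. The share of all rows with an unadjusted p under 0.05 is not given here. The TMM-scaled CPM of the EV types overlapped for each of the 12, whereas all astrocyte EV libraries lay above all NSC EV libraries for 17.2% of tested rows and below them for 16.7%. As shares of non-hairpin counts without TMM, Gm24514, Gm23153, Gm24105 and Gm22649 lay lower in all astrocyte EV libraries than in all NSC EV libraries. The other tested copies overlapped on that scale, for which the share of all rows that separate was not computed. The log2 fold change (log2FC, astrocyte EVs minus NSC EVs) was positive for 9 of the 12 and negative for 3, with a median of 0.54 beside a median of -0.04 over all tested rows. Without TMM, which moved the median of all rows to -0.54, the values of 5 of these 9 (Rn7s6, Gm26461, Gm24514, Gm23153 and Gm25687) were negative. Rn7s1 and Rn7s2 give the same measurement and other copies may share reads, so the 12 copies are not independent of each other.

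Rn7s1 had 8732, 5979 and 9632 counts in the astrocyte EV libraries, against 3984, 2430 and 3956 in the NSC EV libraries. Scaled by TMM, this was 209, 95.5 and 68.3 CPM in the astrocyte EV libraries, against 69.8, 38.6 and 71.6 CPM in the NSC EV libraries. Astrocyte EV replicate 1 lay far above the rest and astrocyte EV replicate 3 lay below 2 of the NSC EV libraries. The means were 124 ± 74.6 CPM in astrocyte EVs and 60 ± 18.6 CPM in NSC EVs (SD, n = 3 each). The log2FC was 1.05 (SE 0.49, edgeR adjusted p = 0.198). It was 0.43 without astrocyte EV replicate 1 and 0.33 without TMM, and neither value was called. Without astrocyte EV replicate 1, however, 0 rows of the whole table were called. Rn7s2 gave nearly the same values, with a log2FC of 1.05 (edgeR adjusted p = 0.199).

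The copies with the next largest counts had smaller log2 fold changes. Rn7s6 stood at 104, 45.5 and 31.7 CPM in the astrocyte EV libraries, against 45.7, 28.4 and 45.8 CPM in the NSC EV libraries, a log2FC of 0.60 (SE 0.48, edgeR adjusted p = 0.447). Gm26461 stood at 94.6, 37.9 and 29.9 CPM in the astrocyte EV libraries, against 41.5, 23.7 and 32.9 CPM in the NSC EV libraries (log2FC 0.73, SE 0.49, edgeR adjusted p = 0.359). Its log2FC was 0.03 without astrocyte EV replicate 1. In TMM-scaled CPM of both copies, as of Rn7s1, astrocyte EV replicate 1 was the highest library. On that scale astrocyte EV replicate 3 lay within the range of the NSC EV libraries. Without TMM, NSC EV replicate 1 had the highest share of non-hairpin counts for Rn7s6 and Gm26461. Gm24514 stood at 70.7, 31.9 and 16.9 CPM in the astrocyte EV libraries, against 38.0, 24.7 and 35.7 CPM in the NSC EV libraries (log2FC 0.28, edgeR adjusted p = 0.759). Gm23153 stood at 31.6, 13.4 and 9.60 CPM in the astrocyte EV libraries, against 21.8, 14.1 and 18.4 CPM in the NSC EV libraries (log2FC 0.01, edgeR adjusted p = 0.995). In these 2 copies astrocyte EV replicate 1 was again the highest library in TMM-scaled CPM, and astrocyte EV replicate 3 was the lowest. As a share of non-hairpin counts without TMM, astrocyte EV replicate 1 instead lay below all NSC EV libraries in both copies. It stood at 0.00345% for Gm24514 and 0.00154% for Gm23153.

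Among copies with fewer counts, Gm25687 stood at 12.1 ± 8.94 CPM in astrocyte EVs and 8.65 ± 3.52 CPM in NSC EVs (SD, n = 3 each), with a log2FC of 0.48. Gm24105 stood at 8.44 ± 4.19 CPM in astrocyte EVs and 9.76 ± 4.62 CPM in NSC EVs (SD, n = 3 each), with a log2FC of -0.21. Among tested copies with at least 1000 counts this was the smallest log2 fold change and the only negative one. The largest was that of Gm24812, which had 324, 184 and 297 counts in the astrocyte EV libraries, against 136, 89 and 114 in the NSC EV libraries (log2FC 1.12, SE 0.52, edgeR adjusted p = 0.191). Gm22567 had 454, 267 and 294 counts in the astrocyte EV libraries, against 231, 133 and 147 in the NSC EV libraries (log2FC 0.96, SE 0.58, edgeR adjusted p = 0.313). The raw counts of these 2 copies were separate between EV types, but their CPM were not. Without astrocyte EV replicate 1 the log2FC was 0.35 for Gm24812 and 0.09 for Gm22567, and without TMM it was 0.34 for Gm24812 and 0.12 for Gm22567. Gm22649, with 27, 12 and 14 counts in the astrocyte EV libraries, against 49, 47 and 17 in the NSC EV libraries, had a log2FC of -1.12 (SE 0.73, edgeR adjusted p = 0.344).

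**Figure D3:**
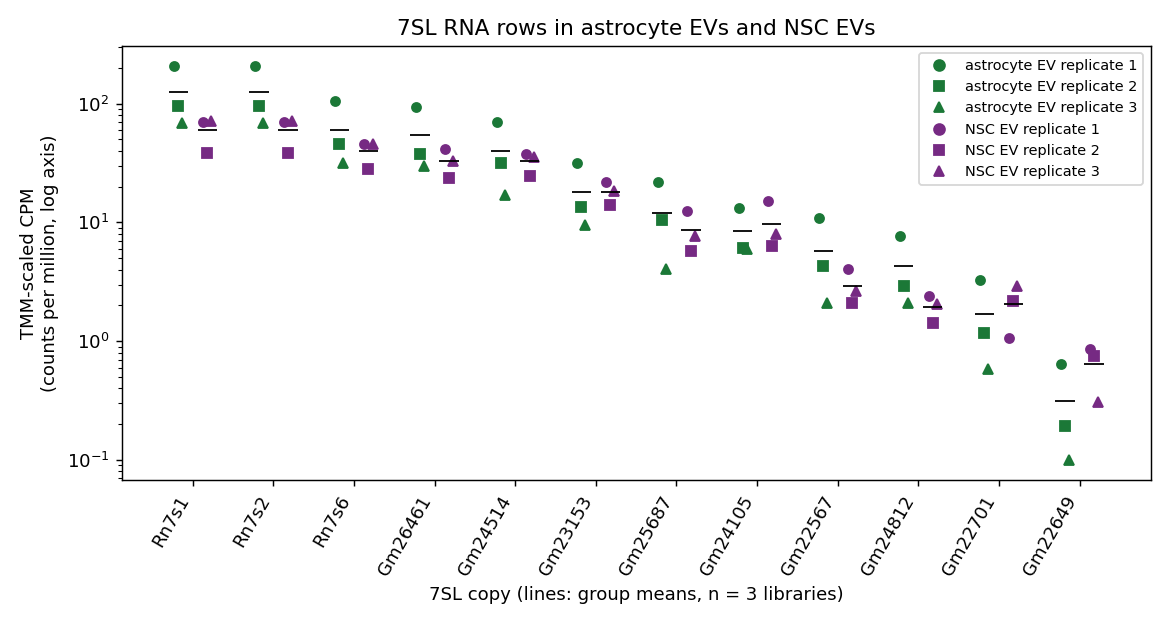
TMM-scaled CPM (log axis) of the 12 tested 7SL copies, in the order of their counts, with 1 point per library, lines for group means (n = 3), astrocyte EVs in green and NSC EVs in purple. Astrocyte EV replicate 1 (green circles) is the highest point for 10 of the 12 copies, and the libraries of the EV types overlap in each copy.

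As a share of the table the family did not separate the EV types. The 13 rows together held 32468, 21585 and 33793 counts in the astrocyte EV libraries, which is 0.0379% (95% Wilson interval 0.0375% to 0.0383%), 0.0300% (0.0296% to 0.0304%) and 0.0304% (0.0300% to 0.0307%) of non-hairpin counts. In the NSC EV libraries they held 18409, 11748 and 16550 counts, which is 0.0385% (0.0380% to 0.0391%), 0.0266% (0.0261% to 0.0271%) and 0.0327% (0.0322% to 0.0332%). The intervals treat table counts as independent, though several rows can count the same read. They may therefore be too narrow even for counting error, and they cover no spread between libraries. The NSC EV replicates lay outside each other's intervals. The means were 0.0327% ± 0.00448 in astrocyte EVs and 0.0326% ± 0.00599 in NSC EVs (SD, n = 3 each). These sums hold both Rn7s1 and Rn7s2, so the measurement that the genes share is counted more than once. The same holds for the family fit and for the sum per 100 mature miRNA counts below. Fitted as 1 feature among all other rows, the family had a log2FC of 0.75 (SE 0.52, edgeR adjusted p = 0.372), which was 0.10 without astrocyte EV replicate 1 and 0.01 without TMM. With Rn7s2 left out of the sum, the log2FC of the family was 0.65 (SE 0.51, edgeR adjusted p = 0.435). The 7SL sum per 100 mature miRNA counts was 17.8, 10.3 and 8.46 in the astrocyte EV libraries, against 7.09, 5.77 and 9.35 in the NSC EV libraries. On this scale only NSC EV replicate 3 lay within the range of the astrocyte EV libraries.

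The division of 7SL counts among the copies was set out for each library as a description, without a test. Rn7s1 took 26.9%, 27.7% and 28.5% of 7SL counts in the astrocyte EV libraries and 21.6%, 20.7% and 23.9% in the NSC EV libraries. All astrocyte EV libraries lay above all NSC EV libraries, at 27.7% ± 0.804 in astrocyte EVs and 22.1% ± 1.65 in NSC EVs (SD, n = 3 each). Rn7s1 and Rn7s2 together took 55.4% ± 1.62 of 7SL counts in astrocyte EVs and 44.2% ± 3.31 in NSC EVs (SD, n = 3 each). These shares were higher in astrocyte EVs in 3 of 3 libraries, and a ratio of rows within a library does not depend on its total count or TMM factor. The 7SL counts here hold both Rn7s1 and Rn7s2. With their shared measurement counted once, the share of Rn7s1 would be higher and that of both genes lower. How often such shares separate over all rows was not computed.

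The same division was expressed for each copy as its count in percent of the Rn7s1 count of the same library, a measure chosen after the counts had been seen. For 6 of the 12 copies all astrocyte EV libraries lay below all NSC EV libraries, and for the other 6 the libraries overlapped. The same was found for 29.6% of all tested rows relative to Rn7s1, and 2.36% lay above. Each of the 6 had p = 0.1 in an exact two-sided permutation test, the smallest p that 3 libraries against 3 allow, so 0 of them could pass a threshold of 0.05. Among the copies whose libraries overlapped, Rn7s2 has the sequence of Rn7s1, so its ratio carries no information on the EV types. Gm22876 was nearly empty and was not among the tested rows. Rn7s6 stood at 50%, 47.7% and 46.5% of Rn7s1 in the astrocyte EV libraries and at 65.5%, 73.7% and 63.9% in the NSC EV libraries. This is 48.1% ± 1.79 in astrocyte EVs and 67.7% ± 5.24 in NSC EVs (SD, n = 3 each).

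Gm24514 stood at 33.9%, 33.4% and 24.7% of Rn7s1 in astrocyte EVs, against 54.4%, 64.0% and 49.8% in NSC EVs. Gm23153 stood at 15.1%, 14% and 14.1% in astrocyte EVs and at 31.2%, 36.5% and 25.7% in NSC EVs. For Gm24514 the gap between the EV types exceeded the range within either, and for Gm23153 it was close to the range within NSC EVs. Gm26461 stood at 45.3%, 39.7% and 43.8% of Rn7s1 in astrocyte EVs and at 59.5%, 61.3% and 46.0% in NSC EVs, where NSC EV replicate 3 lay close to the astrocyte EV libraries. Gm24105 averaged 7.14% ± 1.32 of Rn7s1 in astrocyte EVs and 16.3% ± 5.21 in NSC EVs (SD, n = 3 each). Gm22649 averaged 0.218% ± 0.0834 in astrocyte EVs and 1.20% ± 0.753 in NSC EVs (SD, n = 3 each). These 6 copies hold between 1 and 156 of the 281 words of Rn7s1 and cover between 0 and 58 bases of its last 100.

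In contrast, Gm24812 stood at 3.29% ± 0.364 of Rn7s1 in astrocyte EVs and 3.32% ± 0.399 in NSC EVs (SD, n = 3 each, exact permutation p = 1). Gm22567 stood at 4.24% ± 1.09 in astrocyte EVs and 5.0% ± 1.12 in NSC EVs (SD, n = 3 each, exact permutation p = 0.5). Rn7s2 stayed between 99.9% and 100% of Rn7s1 in all 6 libraries. Gm25687 averaged 9.12% ± 2.74 in astrocyte EVs and 14.5% ± 3.66 in NSC EVs (SD, n = 3 each). Gm22701 averaged 1.23% ± 0.359 in astrocyte EVs and 3.77% ± 2.09 in NSC EVs (SD, n = 3 each). The libraries overlapped in these 5 copies and in Gm22876. When Rn7s1 was used as the library size in edgeR, a setting also chosen after seeing the data, only Gm22649 was called lower (log2 fold change -2.43, SE 0.86, adjusted p = 0.0394), beside 11.3% of all rows called lower and 1.25% called higher. In that fit Rn7s6 had a log2FC of -0.49 (edgeR adjusted p = 0.663) and Gm23153 one of -1.11 (edgeR adjusted p = 0.344).

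**Figure D4:**
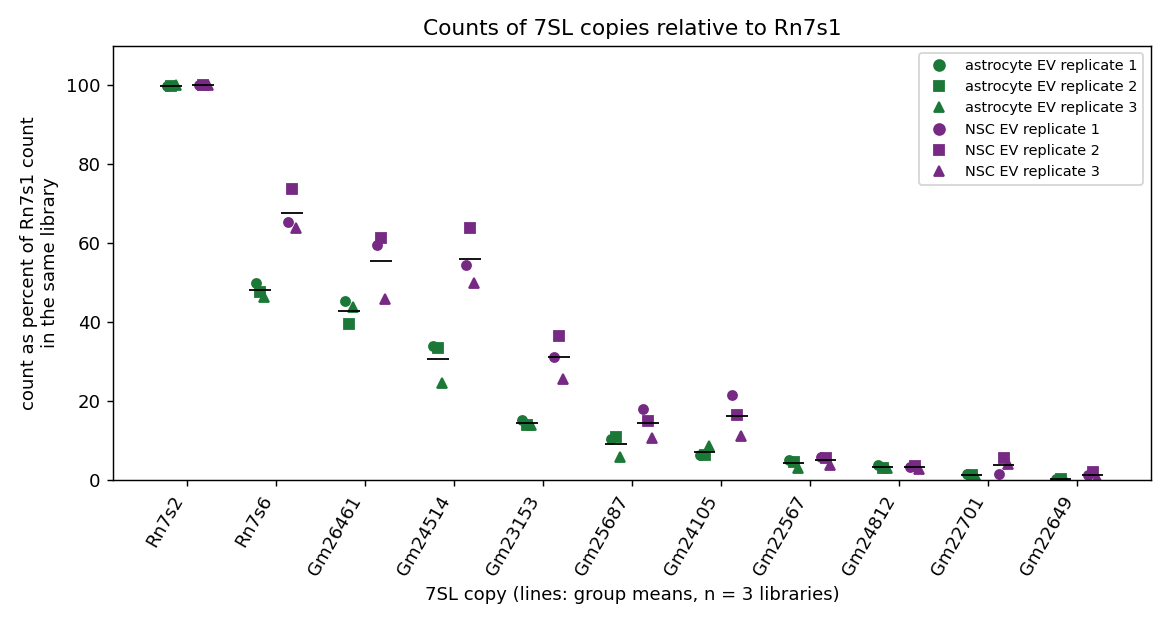
Counts of 11 7SL copies in percent of the Rn7s1 count of the same library, with 1 point per library, lines for group means (n = 3), astrocyte EVs in green and NSC EVs in purple. Rn7s6 lies at 46.5% to 50% in astrocyte EVs, against 63.9% to 73.7% in NSC EVs, and Rn7s2 lies at 100% in both.

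In the window of Rn7s1 from position 87 to 122, the table counts 3 piRNA-annotated rows on the same strand. piRNAs are short RNAs of the germline, and here their annotated sequences lie inside 7SL RNA, so their rows cannot be told apart from 7SL fragments. They overlap each other by all but a few bases, and 0 of the copies other than Rn7s1, Rn7s2 and Rn7s6 hold them without a mismatch. They lie at chr12:69159381-69159410 (mmu_piR_008475), chr12:69159384-69159413 (mmu_piR_003758) and chr12:69159388-69159416 (mmu_piR_000644). The row of mmu_piR_008475 had 1906, 1233 and 2382 counts in the astrocyte EV libraries, against 962, 617 and 967 in the NSC EV libraries. In percent of the Rn7s1 count this was 21.8%, 20.6% and 24.7% in astrocyte EVs and 24.1%, 25.4% and 24.4% in NSC EVs. These ranges overlapped (22.4% ± 2.11 in astrocyte EVs and 24.7% ± 0.650 in NSC EVs, SD, n = 3 each, exact two-sided permutation p = 0.3). The row of mmu_piR_000644 stood at 18.7% ± 4.02 of Rn7s1 in astrocyte EVs and 23.0% ± 0.444 in NSC EVs (SD, n = 3 each, exact permutation p = 0.3). As rows of the edgeR fit, mmu_piR_008475, mmu_piR_003758 and mmu_piR_000644 had log2 fold changes of 0.90, 0.86 and 0.68, and 0 of the 3 were called.

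Of the 13 copies, 4 lie in introns of annotated genes, whose rows in the table span introns. Gm26461 lies in an intron of Zfp949, a zinc finger gene on the same strand. The Zfp949 row had 4038, 2526 and 4857 counts in the astrocyte EV libraries, against 2617, 1704 and 1983 in the NSC EV libraries. The Gm26461 count amounted to 97.9%, 93.9% and 86.8% of it in astrocyte EVs, against 90.6%, 87.4% and 91.7% in NSC EVs. The Zfp949 row is therefore close in size to the 7SL copy inside it, and its log2FC was 0.65 (SE 0.46, edgeR adjusted p = 0.383). Gm24812, in an intron of Il1rapl1, which encodes a synaptic receptor protein, amounted to 1.80% to 5.83% of that row in astrocyte EVs, against 2.16% to 2.92% in NSC EVs. Gm22701, in an intron of Hydin, which encodes a protein of motile cilia, amounted to 2.55% to 6.68% of that row in astrocyte EVs, against 3.45% to 11% in NSC EVs. Gm22649 lies in an intron of Usp29 on the opposite strand and amounted to at most 3.72% of the antisense row of that gene in any library. Of rows outside the family, 0 held the same 6 counts as a 7SL copy.

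The mRNA rows of the protein partners of 7SL were examined as a list of 21 rows covering SRP proteins, the SRP receptor and the translocon of the endoplasmic reticulum. Of the 20 rows tested, 0 were called higher and 1 was called lower in astrocyte EVs, beside 5.54% called higher and 4.24% called lower of all rows. By edgeR 4 of the 20 had an unadjusted p under 0.05, and the median log2 fold change was 0.19. No share of all rows at that unadjusted threshold is given here, so such counts in this list are not read against the table. The rows held between 43 and 13966 counts over the 6 libraries, and they hold short fragments of the genes and not whole mRNAs. Gene rows of the table span introns, and whether other short RNAs lie inside these rows was not examined. Their counts, including those of Sec61a2 with the most, may therefore not all come from the mRNAs.

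Among the SRP proteins, 0 of 8 rows were called by edgeR, 2 of them (Srp9 and Srp72) had an unadjusted p under 0.05, and the median log2 fold change was -0.42. Srp9, which with Srp14 binds the Alu domain and slows translation, had 5, 14 and 86 counts in the astrocyte EV libraries, against 67, 127 and 51 in the NSC EV libraries. At 0.318 ± 0.258 CPM in astrocyte EVs and 1.37 ± 0.573 CPM in NSC EVs (SD, n = 3 each), all astrocyte EV libraries lay below all NSC EV libraries. The log2FC was -2.03 (SE 0.61, edgeR adjusted p = 0.0700), and DESeq2 called it (adjusted p = 0.0112), beside 8.93% of all rows that DESeq2 called lower. Srp14 had 22, 4 and 109 counts in the astrocyte EV libraries, against 48, 43 and 34 in the NSC EV libraries, which overlapped in CPM (log2FC -0.62, edgeR adjusted p = 0.593). Srp72, which with Srp68 binds the S domain, had 78, 73 and 148 counts in the astrocyte EV libraries, against 133, 261 and 126 in the NSC EV libraries. Its CPM lay lower in all astrocyte EV libraries but the row did not pass the test (log2FC -1.11, SE 0.39, edgeR adjusted p = 0.106). Srp68 had 99, 199 and 541 counts in the astrocyte EV libraries, against 145, 348 and 159 in the NSC EV libraries (log2FC -0.22, edgeR adjusted p = 0.753).

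Srp19, which helps the S domain fold, had 10, 0 and 67 counts in the astrocyte EV libraries, against 16, 44 and 46 in the NSC EV libraries (log2FC -1.27, edgeR adjusted p = 0.416). Srp54a encodes the GTPase that binds signal peptides and had 94, 121 and 378 counts in the astrocyte EV libraries, against 85, 84 and 81 in the NSC EV libraries. Its CPM of 2.29 ± 0.375 in astrocyte EVs and 1.43 ± 0.0839 in NSC EVs (SD, n = 3 each) did not overlap, at a log2FC of 0.68 (edgeR adjusted p = 0.176). The 2 rows of its near-identical paralog Srp54b had similar counts, so the assignment of reads among the 3 rows is uncertain. Srpr, the receptor subunit that docks with Srp54, had 19, 52 and 62 counts in the astrocyte EV libraries, against 37, 19 and 18 in the NSC EV libraries (log2FC 0.43, edgeR adjusted p = 0.592). Srprb, which anchors it in the membrane, had a log2FC of -0.12 (edgeR adjusted p = 0.888).

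Among 10 tested translocon rows, Sec61g, the small gamma subunit of the Sec61 channel, was the row called. It had 5, 14 and 48 counts in the astrocyte EV libraries, against 43, 67 and 53 in the NSC EV libraries, or 0.120, 0.224 and 0.340 CPM in the astrocyte EV libraries, against 0.753, 1.06 and 0.960 CPM in the NSC EV libraries. Each astrocyte EV library lay below each NSC EV library, and the log2FC was -1.95 (SE 0.46, edgeR adjusted p = 0.0376). The call was lost without astrocyte EV replicate 1 (log2FC -1.71, edgeR adjusted p = 0.0933) or 2 (-1.93, 0.115), where 0 rows of the whole table were called. It was also lost without NSC EV replicate 1 (-2.07, 0.0604), 2 (-1.83, 0.0949) or 3 (-1.94, 0.0969), with the replicate block (-2.06, 0.0683) and with mature miRNA library sizes (-1.83, 0.0850). Tram1, a membrane protein beside the channel, had 69, 85 and 187 counts in the astrocyte EV libraries, against 40, 44 and 60 in the NSC EV libraries, with CPM that did not overlap (log2FC 0.80, edgeR adjusted p = 0.167). Sec61a2, which encodes an alpha subunit of the channel, held 13966 counts over the 6 libraries, the most of the list, and its CPM overlapped (log2FC 0.41, edgeR adjusted p = 0.661). Ssr4 held 43 counts in all and was not tested.

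**Figure D5:**
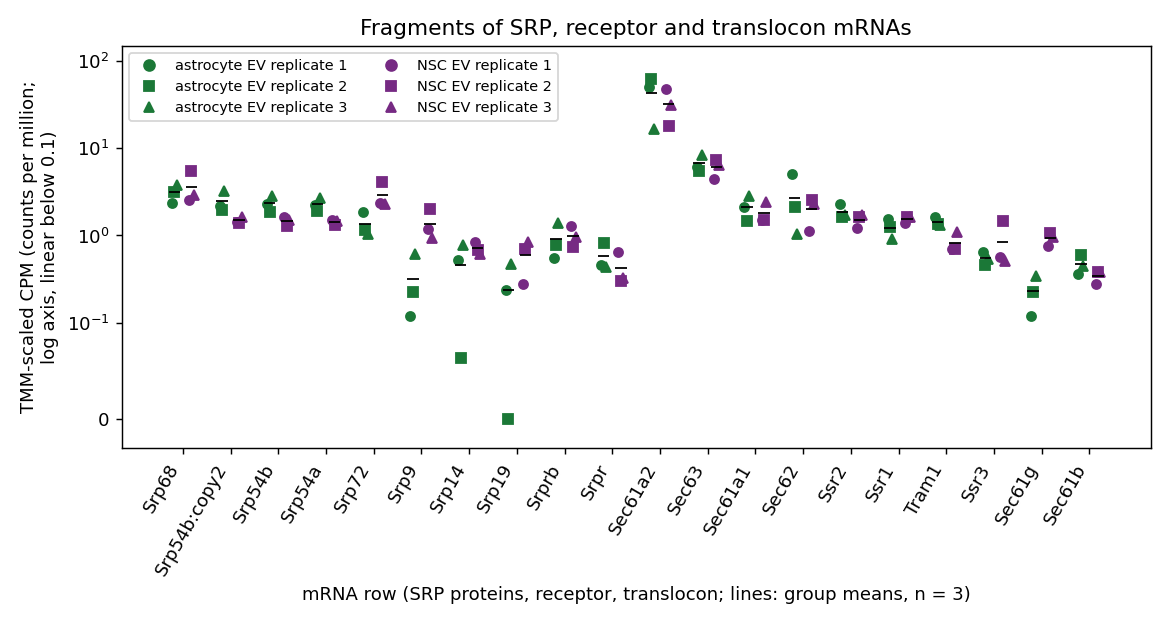
TMM-scaled CPM of the 20 tested mRNA rows of SRP proteins, SRP receptor and translocon (log axis, linear below 0.1), with 1 point per library, lines for group means (n = 3), astrocyte EVs in green and NSC EVs in purple. Sec61g lies at 0.120 to 0.340 CPM in astrocyte EVs, against 0.753 to 1.06 CPM in NSC EVs, and Srp9 is separated in the same direction.

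7SL was set beside 4 other families of short noncoding RNAs made by RNA polymerase III, each summed over its rows with rows of equal counts taken once. The 7SL sum held both Rn7s1 and Rn7s2, whose counts are not quite equal, so their shared measurement is counted more than once. 7SK RNA (248 rows), which restrains transcription elongation in the nucleus, took 0.00234% ± 0.00114 of non-hairpin counts in astrocyte EVs and 0.00327% ± 0.000786 in NSC EVs (SD, n = 3 each). Y RNA (23 rows), which binds the Ro protein, took 0.0546% ± 0.00825 in astrocyte EVs and 0.0657% ± 0.0338 in NSC EVs (SD, n = 3 each). Thus 7SL lay between 7SK and Y RNA in both EV types. The log2 ratio of 7SL to 7SK was 0.57 higher in astrocyte EVs (exact two-sided permutation p = 0.3, adjusted p = 0.4 over 4 families), and that of 7SL to Y RNA was 0.18 higher (exact p = 0.6, adjusted p = 0.6). For U6 RNA (617 rows), the catalytic RNA of the spliceosome, the difference was 1.11 (exact p = 0.2, adjusted p = 0.4). The libraries overlapped in these 3 ratios.

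Vault RNA (2 rows), a component of cytoplasmic vault particles, was the 1 of these 4 families whose ratio to 7SL did not overlap between EV types. It took 0.0142%, 0.0132% and 0.00577% of non-hairpin counts in the astrocyte EV libraries, against 0.000366%, 8.14e-05% and 0.000247% in the NSC EV libraries. As 1 feature it had a log2FC of 6.37 (SE 0.94, edgeR adjusted p = 0.0156). The adjusted p was above 0.05 without astrocyte EV replicate 1 (log2FC 5.62, edgeR adjusted p = 0.0548) or 2 (6.40, 0.0687) and without NSC EV replicate 3 (6.47, 0.0545). Without astrocyte EV replicate 1 or 2, 0 rows of the whole table were called, and without NSC EV replicate 3, 4 were called higher and 14 lower. The log2 ratio of 7SL to vault RNA averaged 1.67 ± 0.642 in astrocyte EVs and 7.37 ± 0.863 in NSC EVs (SD, n = 3 each), without overlap (exact two-sided permutation p = 0.1, the smallest that 3 against 3 allow, and adjusted p = 0.4 over 4 families).

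Among 2943 rows outside the family with at least 10000 counts in all, those whose log2(CPM + 0.5) followed the 7SL sum most closely were sought by Pearson's r over the 6 libraries, as a description. They were the tRNA rows ValAAC (r = 0.891) and ValCAC (r = 0.822) of chromosome 13, mmu_piR_000219 of chromosome 17 (r = 0.819), a 5S rRNA copy of chromosome 15 (r = 0.817) and Fam109b (r = 0.817), whose row spans that 5S copy. The ValAAC row had 54292, 38779 and 52613 counts in the astrocyte EV libraries, against 34773, 19517 and 33509 in the NSC EV libraries. As for 7SL, NSC EV replicate 2 held the fewest counts, but it was also the library with the smallest total count.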

How the data were processed

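Small RNA of 3 astrocyte EV and 3 NSC EV libraries was analysed from a table of raw counts that the authors deposited, with 1 column per library (0 columns could not be matched). The submitters' processing notes list the mm10 build and, without versions, Bowtie, Bowtie2, bedtools, cutadapt, DESeq, FastQC and SAMtools. The treatment of multi-mapping reads and of strand in the counting was not given in the sources used here. Deposited tables of the authors' own comparisons hold group means of normalized counts, fold changes and adjusted p-values and were not used.

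The 788 hairpin rows, which repeat reads of the 902 mature miRNA rows, were left out. All other rows were fitted with edgeR 4.0.16 in R 4.3.3 by its quasi-likelihood test on the group, after TMM scaling and filterByExpr, and p-values were adjusted by Benjamini and Hochberg, with calls made below 0.05. The SE given with an edgeR log2FC is its absolute value divided by the square root of the test's F statistic. edgeR itself reports no SE for this test. The biological coefficient of variation was 0.449. Total counts ran from 44620985 to 111851274 per library. Ratios were compared by exact two-sided permutation tests. Any 2 replicates differed by far more than sampling noise (chi-square over degrees of freedom of at least 152). Sequences (not reported here) and introns came from GENCODE vM21 (GRCm38, the same assembly), where 13 of 13 rows matched a gene of the same start, end and strand. Identity was taken from a global alignment to Rn7s1 (biopython 1.88). Tables and figures were made in Python 3.11.15 with scipy 1.17.1, pandas 2.3.3, matplotlib 3.10.9 and numpy 2.4.6.

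The rows, lists and tests were chosen with earlier results of these data known. Named were the 10 7SL rows with the most counts, those with the largest and smallest fold change at 1000 counts or more, listed SRP rows that passed the test with the SRP proteins and receptor, and the 5 rows most correlated with the 7SL sum. Gm22701, Gm22649 and Gm22876, the host genes, the piRNA rows, Srprb, Srp54b, Tram1, Sec61a2, Ssr4 and the called marker rows are named in addition and were picked with their values in view. Alternatives were DESeq2 1.42.0, its size factors, no TMM, mature miRNA library sizes, no filter, a minimum of 10 counts, rows of equal counts once, the replicate number as a block and each library left out. The family without Rn7s2, Rn7s1 as library size, and the matches and ratios to Rn7s1 were added after seeing the data. The scripts were tested on simulated counts.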

Additional observations from a re-analysis of the deposited data

How the results depend on the processing

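No 7SL copy was called under DESeq2, other scalings or filters, the block or with a library left out, where the smallest adjusted p was 0.0775, and 1 was called by edgeR with Rn7s1 as library size. Without astrocyte EV replicate 1 or 2 no row of the whole table was called, so the lack of a call there says nothing about 7SL. Leaving out TMM moved the median log2 fold change of all rows from -0.04 to -0.54 and the calls of all rows from 2290 higher and 1750 lower to 738 higher and 3217 lower. It turned Rn7s6 (-0.15), Gm26461 (-0.028), Gm24514 (-0.52), Gm23153 (-0.76), Gm25687 (-0.34), Zfp949 (-0.075), 7SK (-0.48) and Y RNA (-0.27) negative. Without astrocyte EV replicate 1, Rn7s6 (-0.069), Gm24514 (-0.45), Gm23153 (-0.68), Gm25687 (-0.27) and 7SK (-0.17) were negative. Without NSC EV replicate 2, Gm23153 (-0.14) and 7SK (-0.03) were negative, as was 7SK without NSC EV replicate 3 (-0.06). Gm24105 turned to 0.00018 without astrocyte EV replicate 3 and 0.24 without NSC EV replicate 1, and Gm22701 to 0.12 without astrocyte EV replicate 3 and 0.02 without NSC EV replicate 3. Gm23153 was -0.024 with mature miRNA library sizes and -0.015 with rows of equal counts once. None of these values was called in either direction, and the cause was not tested.

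With 1 library left out, Rn7s1 ran from 0.43 to 1.35 and the family from 0.10 to 1.07 in log2 fold change. The highest values were 0.92 for Rn7s6, 0.66 for Gm24514, 0.32 for Gm23153, 0.91 for Gm25687 and 0.28 for 7SK, and the lowest were -0.72 for Gm24105 and -1.25 for Gm22701. The 7SL share ran from 0.0302% to 0.0341% in astrocyte EVs and from 0.0296% to 0.0356% in NSC EVs, and the Rn7s1 share of 7SL from 27.3% to 28.1% and from 21.2% to 22.8%. Of SRP and translocon rows, 2 were called with DESeq2, without a low-count filter and with Rn7s1 as library size, 0 with mature miRNA library sizes, and 0 to 2 with 1 library left out. Over all rows, 0 were called without astrocyte EV replicate 1 or 2, and 4 higher and 14 lower without NSC EV replicate 3. DESeq2 called 4203 higher and 3687 lower. The 7SL share was 0.0396% in astrocyte EVs over rows of equal counts once, 0.0986% in astrocyte EVs and 0.0578% in NSC EVs without tRNA and rRNA rows in the denominator, and 0.00905% in astrocyte EVs and 0.00722% in NSC EVs for Rn7s1 alone.

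With the replicate number as a block, Rn7s1 had a log2 fold change of 0.95 (adjusted p = 0.322 from edgeR), the family 0.62 (0.562) and Gm23153 -0.16, 0 of the SRP and translocon rows were called, and 668 rows of the table were called higher and 577 lower. Deviations of same-numbered libraries correlated at -0.05, -0.04 and -0.14, and those of differently numbered libraries at -0.05 to 0.14. Deviations from a mean of 3 libraries are tied to each other, so these values cannot show whether the numbers pair the libraries.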
